A study of Mus musculus with 8 samples.

Results

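The oxidative stress and NRF2 target genes are 35 genes chosen by function: the transcription factor NRF2 and its regulators, enzymes of glutathione and thioredoxin chemistry, peroxide and superoxide defence, NADPH supply by the pentose phosphate pathway, and iron storage. All 35 were found by gene symbol among the 49315 genes of the files, and 34 of them had enough reads to be tested. Their RNA was measured by bulk sequencing of keratinocytes of the epidermis, taken from back skin at 22 months of age, in 3 libraries whose genotype label is wild type (WT) and 5 whose label is Tgfa knockout (KO). The Tgfa product, TGF-alpha, activates the EGF receptor. Strain, sex and the knockout allele's structure were not stated in the labels. Nor do the labels state that each library came from a separate animal, so p-values speak of the spread among these 8 libraries, which may be technical.

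NRF2 is held in the cytoplasm by KEAP1, which passes it to a ubiquitin ligase for destruction. Oxidants and electrophiles modify cysteines of KEAP1, and NRF2 then enters the nucleus, pairs with small MAF proteins and binds antioxidant response elements in the DNA of its target genes. In epidermis the pathway is known for protecting keratinocytes from ultraviolet light and reactive chemicals, and NRF2 competes for its DNA elements with the repressor BACH1, which is displaced by heme.

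KO replicate 2 was shallowest with 5313552 counts in total, and the other 7 libraries held 12968728 to 18292303. The library labelled KO replicate 1 had 132 CPM of Tgfa (CPM being the count per library size after TMM scaling). WT libraries had 85.1 to 112 and the other KO libraries 34.4 to 70.2. A level above every WT library is at odds with the KO label, but Tgfa RNA was present in every KO library. With the allele's structure not stated, the RNA level cannot settle the genotype of any library. The nuclear RNA Malat1 held 6.61% of all counts of WT replicate 3, 4.88% of those of the library labelled KO replicate 1 and 1.34% to 1.84% elsewhere. KO replicate 2 had 4.58 counts per kb on olfactory and vomeronasal receptor genes, which epidermis is not known to express, against 0.124 to 1.84 in the other libraries. The names of the WT libraries and of KO replicates 1 and 2 carry the ending br, and those of KO replicates 3 to 5 the ending bl, which the labels do not explain. Keratinocyte markers such as Krt5 and Krt14 were detected in every library, with a summed level of 8 markers of 16400 to 32700 CPM in the WT group and 15700 to 36500 in KO, lowest in WT replicate 3 and KO replicate 2.

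Antioxidant response elements carry the core word TGACNNNGC, where N is any base. RefSeq promoters on GRCm38.p6, from 250 bases before to 50 bases after a start site, were matched by symbol for 30 of the 35 members. The unmatched members were Gclc, Gsr, Gsta4, Hmox1 and Prdx6. The word was present on either strand in a promoter of 11 members, or 36.7% of the 30, and of 14% of all 27025 genes in the table. Counted over promoters, it was in 27.5% of the 40 member promoters and 12.4% of all 32851. Members with the word were Nfe2l2, Gclm, Txnrd1, Srxn1, Prdx1, G6pdx, Pgd, Me1, Gsta3, Mgst1 and Sod1. The following windows show the word, in capitals, with up to 20 bases on each side, for every member whose word lies wholly before the start site, so that the shared letters can be compared. They are written 5′ to 3′ on the gene's strand, where GC comes first when the word lies on the opposite strand.
Gsta3, chr1:21240444-21240492, plus strand: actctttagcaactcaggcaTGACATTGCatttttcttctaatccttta
Nfe2l2, chr2:75704875-75704913, minus strand: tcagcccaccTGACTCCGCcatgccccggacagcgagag
Gclm, chr3:122245403-122245451, plus strand: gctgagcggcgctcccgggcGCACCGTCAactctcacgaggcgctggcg
Prdx1, chr4:116685446-116685494, plus strand: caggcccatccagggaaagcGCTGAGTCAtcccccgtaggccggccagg
Mgst1, chr6:138140451-138140499, plus strand: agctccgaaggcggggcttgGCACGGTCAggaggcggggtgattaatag
Txnrd1, chr10:82859094-82859142, plus strand: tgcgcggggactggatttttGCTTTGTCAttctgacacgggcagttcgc
Sod1, chr16:90220686-90220734, plus strand: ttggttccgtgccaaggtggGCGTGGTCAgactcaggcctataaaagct
G6pdx, chrX:74428909-74428957, minus strand: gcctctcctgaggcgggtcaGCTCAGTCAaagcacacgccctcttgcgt
In Prdx1 the word overlaps TGANTCA, the word of the AP-1 factors, and so does the word of Me1, TGACTCAGC, which lies across its start site. These matches describe letters in a window, and no binding was measured. Members with the word stood on both sides of the comparison below. The values of Nfe2l2, Txnrd1, Srxn1 and Me1 were lower in KO. Those of Gsta3, Mgst1, Gclm, Prdx1, Sod1, Pgd and G6pdx were higher, G6pdx being close to level (edgeR log2 fold change 0.05).

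Levels of the members are compared between genes as CPM per kb of exon. Fth1, the ferritin heavy chain that oxidises iron for storage, was highest at 256 CPM per kb over the 8 libraries. Next came Me1, Hmox1, Gpx1 and Sqstm1 at 72.4, 69.7, 69.1 and 63.7, an order that lies within their spread between libraries. Lowest were the glutathione transferases Gsta1 and Gsta3 at 0.393 and 0.368 and the cystine transporter gene Slc7a11 at 0.264. In all, 25 members had a mean of at least 10 CPM, and Gsta1, with 0 to 8 counts per library, was the member left untested.

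**Figure D1:**
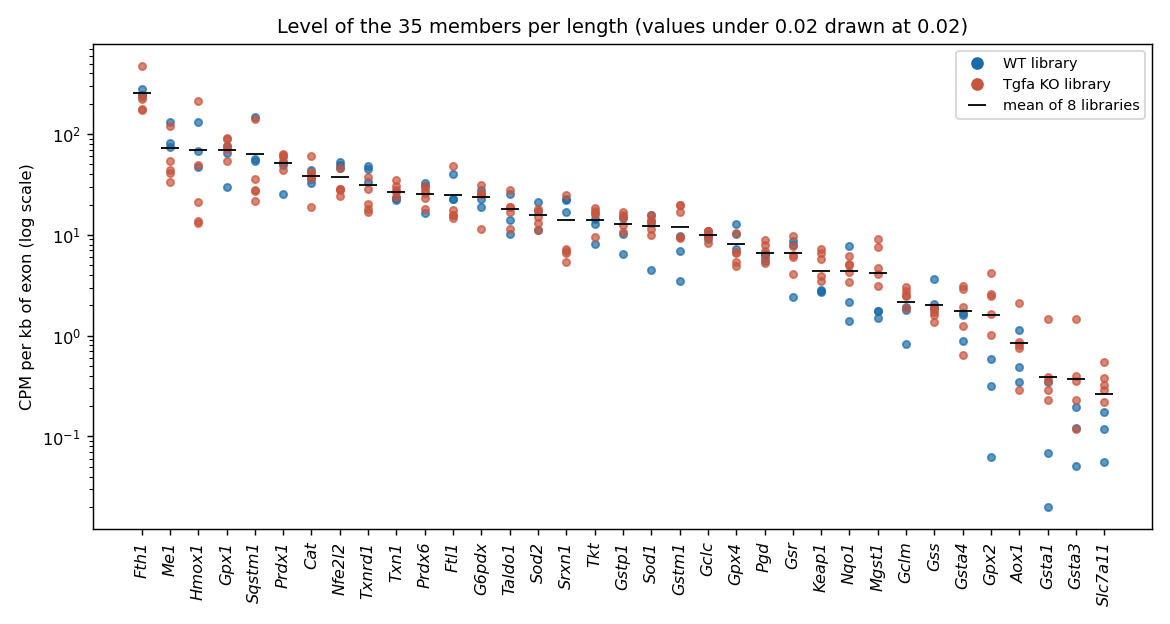
Level of each of the 35 members in CPM per kb of exon (log scale), ordered by the mean of the 8 libraries (bars), with a point for each WT (blue) and KO (red) library. Fth1 stands first at 256 and Slc7a11 last at 0.264, and the points of Hmox1 and Sqstm1 are spread far more widely than those of Gclc.

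The spread of single members between libraries differed widely. The SD of log2 CPM over the 8 libraries was 0.14 for Gclc, 0.24 for Txn1 and 0.26 for Pgd, and 1.06 for Sqstm1, 1.47 for Hmox1 and 1.51 for the scarce Gpx2. Among members of at least 10 CPM the median SD was 0.49, beside 0.42 for all 8742 tested genes of that level.

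KO was compared with WT to ask which genes differ in aged epidermis labelled as lacking Tgfa. With the 8 libraries weighted equally, the edgeR quasi-likelihood test called 0 of the 34 tested members at an adjusted p under 0.05, and 0.0052% of all 19239 tested genes. At an unadjusted p under 0.05 there were 8 members, of which Keap1, Slc7a11, Gclm, Gstm1, Mgst1 and Gpx2 were higher and Nfe2l2 and Txnrd1 lower, beside 6.28% of all tested genes (4.44% higher, 1.85% lower). Limma voom called 0, as it did over all genes (0.0%), and gave 9 members an unadjusted p under 0.05, beside 7.2% of all genes. DESeq2 called 1, Mgst1 (log2 fold change 1.71, adjusted p = 0.0187), and gave Sqstm1 no p-value. It called 137 genes, or 0.319% of the 43007 with a p-value, a wider set than the 19239 of the other fits. The median log2 fold change was 0.19 over the members and 0.16 over all tested genes. Over tested genes with a mean of at least 10 CPM, a level that 25 members reach, it was -0.0. There were 21 members positive and 13 negative, where 61.9% of all tested genes were positive.

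Limma voom was also run with library weights, set by how closely each library's expression values follow those of its group. The weights thus come from the same values as the test and are no separate measure of quality. WT replicate 3 and KO replicates 1 and 2 counted least (weights 0.34, 0.28 and 0.37, against 1.47 to 2.26). With these weights 9 members passed, as did 6.46% of all tested genes. In that fit Keap1, Nqo1, Gstm1 and Mgst1 rose and Nfe2l2, Sqstm1, Txnrd1, Srxn1 and Me1 fell, where 3.39% of all tested genes rose and 3.07% fell. The KO libraries of high weight all end in bl, and every WT library ends in br. Genotype and label ending are therefore hard to tell apart in the weighted fit. Leaving out WT replicate 2 took the count of 9 to 0, WT replicate 1 to 1, KO replicate 4 to 2 and KO replicate 3 to 3. Leaving out the library labelled KO replicate 1 took it to 11. The count over all tested genes also varied widely among these left-out fits, over a range given below. These changes are therefore not read as particular to the members. Without WT replicate 3 and KO replicates 1 and 2, edgeR called 10 members (5 higher, 5 lower), where 10.6% of all genes passed, in a comparison with br endings on the WT side and bl endings on the KO side. Genotype and label ending cannot be told apart there. With the br libraries alone (3 WT against 2 KO), 0 members passed in edgeR. The KO side of that fit is KO replicates 1 and 2, both of low weight. Its values therefore do not separate label ending from the traits of those libraries. The targeted gene, Tgfa, had a log2 fold change of -0.61 in edgeR (adjusted p = 0.899). It was -0.91 with library weights (limma adjusted p = 0.0483) and -0.2 in the br libraries alone.

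**Figure D2:**
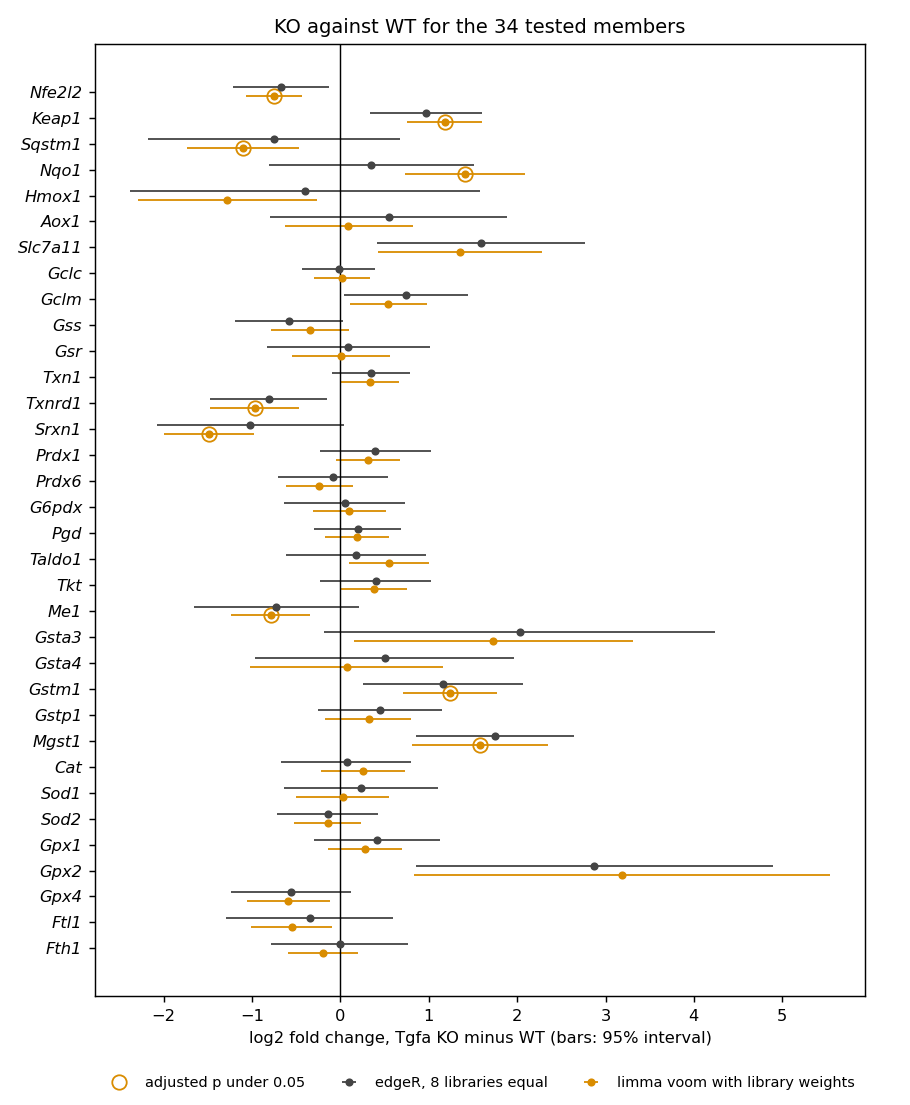
Log2 fold change of KO against WT for the 34 tested members, with 95% intervals, from edgeR with equal libraries (grey) and from limma voom with library weights (orange), where circles mark an adjusted p under 0.05. All 9 circles belong to the weighted fit, with Nfe2l2, Sqstm1, Txnrd1, Srxn1 and Me1 left of 0 and Keap1, Nqo1, Gstm1 and Mgst1 right of it.

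The genes for NRF2 and its inhibitor stood on opposite sides. Nfe2l2 encodes NRF2 and lies on chromosome 2 (75675513 to 75704641, GRCm38, minus strand). It was at 175, 186 and 202 CPM in WT replicates 1 to 3, at 174 in the library labelled KO replicate 1 and at 91.9, 106, 109 and 107 in KO replicates 2 to 5. All KO values lay below all WT values, but the library labelled KO replicate 1 was close to the lowest WT library. KO minus WT came to -0.67 on the log2 scale (SE 0.24, edgeR adjusted p = 0.683), and -0.75 with library weights (limma adjusted p = 0.0148).

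Keap1 lies on chromosome 9 (21229730 to 21239361, minus strand). It was at 13.4, 12.9 and 12.7 CPM in the WT group and at 18.4, 16.3, 31.1, 34 and 27.1 in KO replicates 1 to 5. WT values were nearly equal (13 ± 0.365, SD, n = 3), and every KO library was above them, with the libraries ending in bl highest. With the receptor gene density of each library taken off its counts, KO replicate 2 came to 12.6 CPM, below WT replicate 1 at 13.3, so the groups then overlapped. The edgeR estimate was a log2 difference of 0.97 (SE 0.28, edgeR adjusted p = 0.563), 1.18 with library weights (limma adjusted p = 0.00756) and 0.36 in the br libraries alone. Of its exon bases, 10.9% are shared with the opposite-strand gene Gm16754, whose reads are not told apart where counting ignores strand. In bulk epidermis, fewer cells of a type and less RNA per cell cannot be told apart, for these and all members.

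The ratio of Nfe2l2 to Keap1, each per kb, was 16.2, 17.8 and 19.7 in WT. It was 11.7 in the library labelled KO replicate 1, 6.96 in KO replicate 2 and 4.22, 3.97 and 4.89 in KO replicates 3 to 5. All 5 KO ratios were below all 3 WT ratios, and the ratio was formed after both genes' values had been seen, so it carries no test. Over all tested genes the groups did not overlap in 5.15% (3.4% higher in KO, 1.75% lower). Among the 34 members this held for Nfe2l2 on the lower side and for 5 on the higher side, Keap1, Slc7a11, Txn1, Mgst1 and Gpx2. With the receptor gene density taken off, Keap1, Slc7a11 and Txn1 overlapped, Mgst1 and Gpx2 did not, and Gclm and Gsta3 on the higher side and Gss on the lower side became separate, beside 2.84% of all tested genes on the higher side and 2.01% on the lower. The separation gained was narrow. KO replicate 1 and WT replicate 2 stood at 11.74 and 11.72 CPM for Gclm and at 0.43 and 0.26 for Gsta3. For Gss, KO replicate 5 and WT replicate 2 both rounded to 10.81.

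Sqstm1 encodes p62, an autophagy receptor that binds KEAP1 and is itself an NRF2 target. Its values were 188, 181 and 492 CPM in the WT group and 473, 120, 73.1, 94 and 90.6 in KO replicates 1 to 5. WT replicate 3 and the library labelled KO replicate 1 were high, and KO replicates 2 to 5 were below every WT library. On the log2 scale the KO level differed by -0.75 (SE 0.64, edgeR adjusted p = 0.919), -1.1 with library weights (limma adjusted p = 0.0433), -1.61 in edgeR without the library labelled KO replicate 1, and 0.09 in the br libraries alone.

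**Figure D3:**
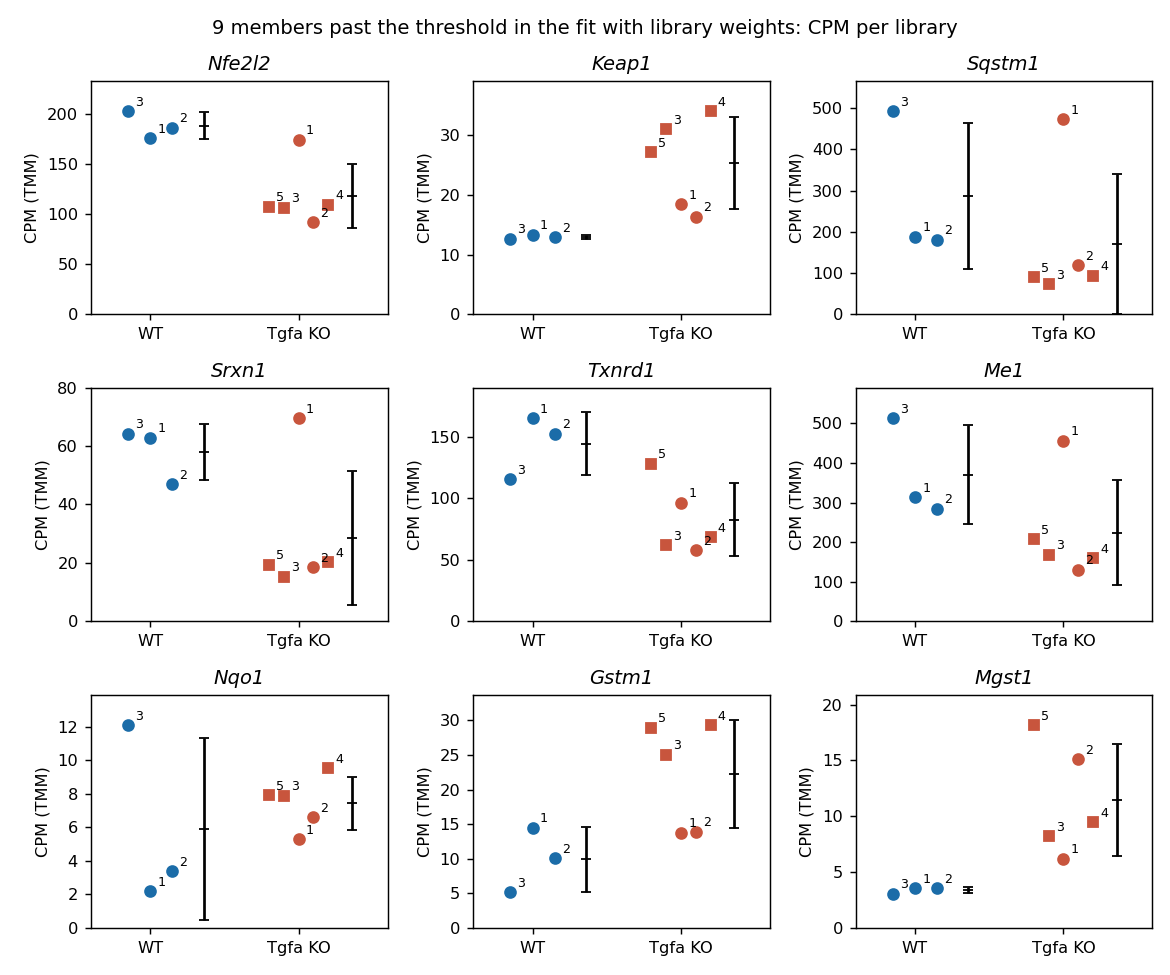
CPM in each library of the 9 members past the threshold with library weights, numbered by replicate, for WT (blue) and KO (red; squares for libraries ending in bl), with the mean and SD of each group (black). In the panels of Nfe2l2, Sqstm1, Srxn1 and Me1 the library labelled KO replicate 1 stands apart from KO replicates 2 to 5, while all 5 KO points of Keap1 and Mgst1 lie above the WT points.

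The thioredoxin system reduces protein disulfides and recharges peroxiredoxins with electrons from NADPH, and the values of its genes lay on both sides of WT. Srxn1 encodes sulfiredoxin, which repairs over-oxidised peroxiredoxins. It was at 63, 47 and 64.2 CPM in WT, at 69.6 in the library labelled KO replicate 1 and at 18.6, 15.3, 20.2 and 19.4 in KO replicates 2 to 5. The KO group was thus split, with 1 library above all WT libraries and 4 below them. This gave a log2 difference of -1.02 (SE 0.48, edgeR adjusted p = 0.813), -1.49 with library weights (limma adjusted p = 0.00606) and -0.39 in the br libraries alone. The KO side of the br fit held the values 69.6 and 18.6 CPM, which lie far apart. Srxn1 was also the 1 member called in edgeR with WT set against the KO libraries ending in bl (-1.72, adjusted p = 0.0465), where 0.122% of all genes passed.

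Txnrd1, the selenoenzyme that reduces thioredoxin, was at 165, 153 and 116 CPM in the WT group and at 96.2, 57.7, 61.8, 68.5 and 128 in KO. KO replicate 5 alone reached into the WT range. As a log2 difference this was -0.81 (SE 0.3, edgeR adjusted p = 0.683), -0.97 with library weights (limma adjusted p = 0.0318) and -0.95 in the br libraries alone.

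Values of Txn1, the gene of thioredoxin itself, were higher in KO. It was at 23.2, 24.4 and 24.4 CPM in the WT group and at 37.1, 24.8, 28.3, 32.4 and 29.6 in KO. The groups did not overlap, by a small margin, but with the receptor gene density taken off KO replicate 2 came to 24 CPM, below WT replicates 2 and 3 at 24.3 and 24.2. The log2 difference of 0.35 (SE 0.2, edgeR adjusted p = 0.851) did not pass. The peroxiredoxin genes Prdx1 and Prdx6, whose products reduce peroxides, were at 77.3 to 162 and 78.6 to 158 CPM in the WT group and at 134 to 194 and 87.5 to 148 in KO. Neither passed (log2 fold changes 0.39 and -0.08), and both were lowest in WT replicate 3.

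Glutathione is made from cystine, which SLC7A11 imports, by glutamate-cysteine ligase (catalytic subunit Gclc, modifier subunit Gclm) and then glutathione synthetase (Gss), and glutathione reductase (Gsr) recycles it. None of these 5 genes passed in edgeR or with library weights. Gclc had the most even level of all tested members, at 34.5, 41 and 37.2 CPM in the WT group and 36.1, 31.1, 40.6, 36.6 and 40.9 in KO (log2 fold change -0.02, 95% interval -0.43 to 0.39). Gclm was at 11.4, 12.1 and 5.16 CPM in the WT group and 11.9, 19.3, 17.4, 15.5 and 16.1 in KO, with a log2 difference of 0.74 (SE 0.31, edgeR adjusted p = 0.744). Gclc was thus close to level, while Gclm was higher in 4 KO libraries than in every WT library. The difference between these subunits was not tested, and the 95% interval of Gclm, 0.04 to 1.44, overlaps that of Gclc.

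Slc7a11 was scarce, at 0.78, 2.45 and 1.64 CPM in the WT group and 5.31, 7.64, 4.5, 3.08 and 4.04 in KO. The groups did not overlap (log2 fold change 1.59, SE 0.53, edgeR adjusted p = 0.63). Its exons are long at 13922 bases, and the receptor gene density of KO replicate 2 would give 63.7 counts on that length, more than the 44 measured, so its value in that library is not above this background. Gss was at 11.2 to 21.6 CPM in the WT group and 8.07 to 11.5 in KO (-0.58, edgeR adjusted p = 0.813), and Gsr at 6.72 to 24.1 and 11.3 to 26.7 (0.09, adjusted p = 0.974). Acss2, on the opposite strand, shares 6.68% of the exon bases of Gss.

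Glutathione S-transferases attach glutathione to reactive compounds. All 5 tested members had positive values in edgeR, with a median log2 fold change of 1.16, where 61.9% of all tested genes were positive. Tested transferase genes outside the members lay lower for the most part. Their edgeR values were 1.68 (Mgst2), 0.76 (Gstm2), 0.24 (Mgst3), 0.21 (Gsto1), 0.14 (Gsta2), -0.01 (Gstm5) and -0.09 (Gstk1). Of the 5 tested members, Gstm1 alone had a mean of at least 10 CPM. The median over all tested genes was 0.16, but -0.0 over those of at least 10 CPM. The share of 61.9% is therefore no like-for-like base for these scarce genes. Mgst1 encodes a microsomal transferase and lies on chromosome 6 (138140316 to 138156755, plus strand). It was at 3.53, 3.57 and 3.05 CPM in the WT group and at 6.19, 15.1, 8.19, 9.47 and 18.2 in KO. Every KO library was above every WT library, the library labelled KO replicate 1 being the lowest of them. In edgeR, KO minus WT was 1.75 on the log2 scale (SE 0.4, edgeR adjusted p = 0.421), the smallest edgeR p of the members, 1.58 with library weights (limma adjusted p = 0.0247) and 1.53 in the br libraries alone. Mgst1 is also known as abundant in sebaceous glands. The summed level of 8 sebocyte markers was 586 to 793 CPM in the WT group and 499 to 779 in KO, overlapping between the groups, with 0 markers called in edgeR and 1 higher with library weights.

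Gstm1 was at 14.5, 10.1 and 5.16 CPM in the WT group and 13.8, 13.9, 25.1, 29.3 and 28.9 in KO. Values of the 3 KO libraries ending in bl were above all others, while KO replicates 1 and 2 lay within the WT range. KO minus WT came to 1.16 on the log2 scale (SE 0.41, edgeR adjusted p = 0.669), 1.24 with library weights (limma adjusted p = 0.0156) and 0.39 in the br libraries alone. Gstm1 has close relatives, of which Gstm2 had 75.1% as many counts, so reads could be split between them. Gstp1 was at 4.92 to 11.1 CPM in the WT group and 7.99 to 12.9 in KO (0.45, edgeR adjusted p = 0.893). Its relatives Gstp2 and Gstp3 had 5.55% and 14% as many counts.

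The alpha class transferases were scarce. Gsta4 was at 1.12 to 2.11 CPM in the WT group and 0.81 to 3.91 in KO, and Gsta3 at 0.22 to 0.86 and 0.52 to 6.43. KO replicate 2 alone gave the highest Gsta3 value, from 37 counts, where the receptor gene density of that library would give 19.9. Gsta1 had 34 counts in all libraries together, and its close relative Gsta2 had 875.

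Nqo1 and Hmox1, widely used readouts of NRF2 activity, had different patterns over the libraries. Nqo1, a quinone reductase gene, was at 2.18, 3.37 and 12.1 CPM in the WT group and 5.31, 6.6, 7.88, 9.53 and 7.93 in KO. WT replicate 3 was the highest of all libraries, and every KO library was above the other 2 WT libraries. The edgeR estimate was a log2 difference of 0.35 (SE 0.52, edgeR adjusted p = 0.935), 1.41 with library weights (limma adjusted p = 0.0242), 1.41 in edgeR without WT replicate 3, and -0.01 in the br libraries alone.

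Hmox1 encodes heme oxygenase 1, which releases iron from heme and is repressed by BACH1. It was at 120, 81.6 and 231 CPM in WT, at 376 in the library labelled KO replicate 1 and at 24, 22.8, 36.9 and 85.9 in KO replicates 2 to 5. The highest and the lowest library were both in the KO group. On the log2 scale the KO level differed by -0.4 (edgeR SE 0.89 and adjusted p = 0.952, 95% interval from -2.38 to 1.58), -1.28 with library weights (limma adjusted p = 0.115), and -1.77 in edgeR without the library labelled KO replicate 1. Aox1, an aldehyde oxidase gene, was at 3.05 to 9.79 CPM in the WT group and 2.51 to 18.4 in KO (0.55, edgeR adjusted p = 0.933), highest in KO replicate 2.

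Iron storage genes shared the high libraries of Hmox1. Ftl1, the ferritin light chain gene, was at 30.2, 30.4 and 53.3 CPM in the WT group and 63.9, 23.8, 20.9, 19.9 and 20.9 in KO. KO replicates 2 to 5 were below every WT library and the library labelled KO replicate 1 above all of them (log2 fold change -0.34, edgeR adjusted p = 0.935, and -0.55 with library weights, limma adjusted p = 0.127). Fth1 was at 213, 212 and 242 CPM in the WT group and 410, 152, 200, 194 and 150 in KO (-0.01, 95% interval -0.78 to 0.76, edgeR adjusted p = 0.997). Ftl1 shares 26.5% of its exon bases with the opposite-strand gene Gm10252.

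WT replicate 3 and the library labelled KO replicate 1 were the 2 highest libraries for 8 tested members: Sqstm1, Hmox1, Srxn1, Taldo1, Me1, Gpx4, Ftl1 and Fth1. Among all tested genes this held for 11.4%. Within the KO group, 1 library stood far from the other 4 by Dixon's test for 11 of the 35 members, beside 24.5% of all tested genes. For 7 of them it was the library labelled KO replicate 1 that was far above, beside 5.33% of all tested genes. These are the 2 libraries with the highest Malat1 shares. A list of 10 wound keratin and alarmin genes summed to 2720 and 4900 CPM in them and to 411 to 961 in the other 6, and 8 macrophage markers to 103 and 119 and to 23.9 to 90.7. None of the 8 macrophage markers was at 0 in every library. Markers of Langerhans cells, the antigen-presenting cells of the epidermis, summed to 577 to 888 CPM in the WT group, 878 in the library labelled KO replicate 1 and 427, 422, 513 and 236 in KO replicates 2 to 5. KO replicates 2 to 5 were thus below every WT library, as in Srxn1, Sqstm1 and Mafk, and 1 of the 6 markers fell with library weights. The library labelled KO replicate 1 lay within the WT range for this list and for Sqstm1, and above it for Srxn1 and Mafk. How many of all tested genes have this pattern was not counted. The part of these lists in the members' values was not tested. Conversely, WT replicate 3 was the lowest library for 12 tested members, among them Gpx1, Prdx1, Prdx6, Sod1, Sod2, Gsr and Tkt, beside 20.7% of all tested genes.

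**Figure D4:**
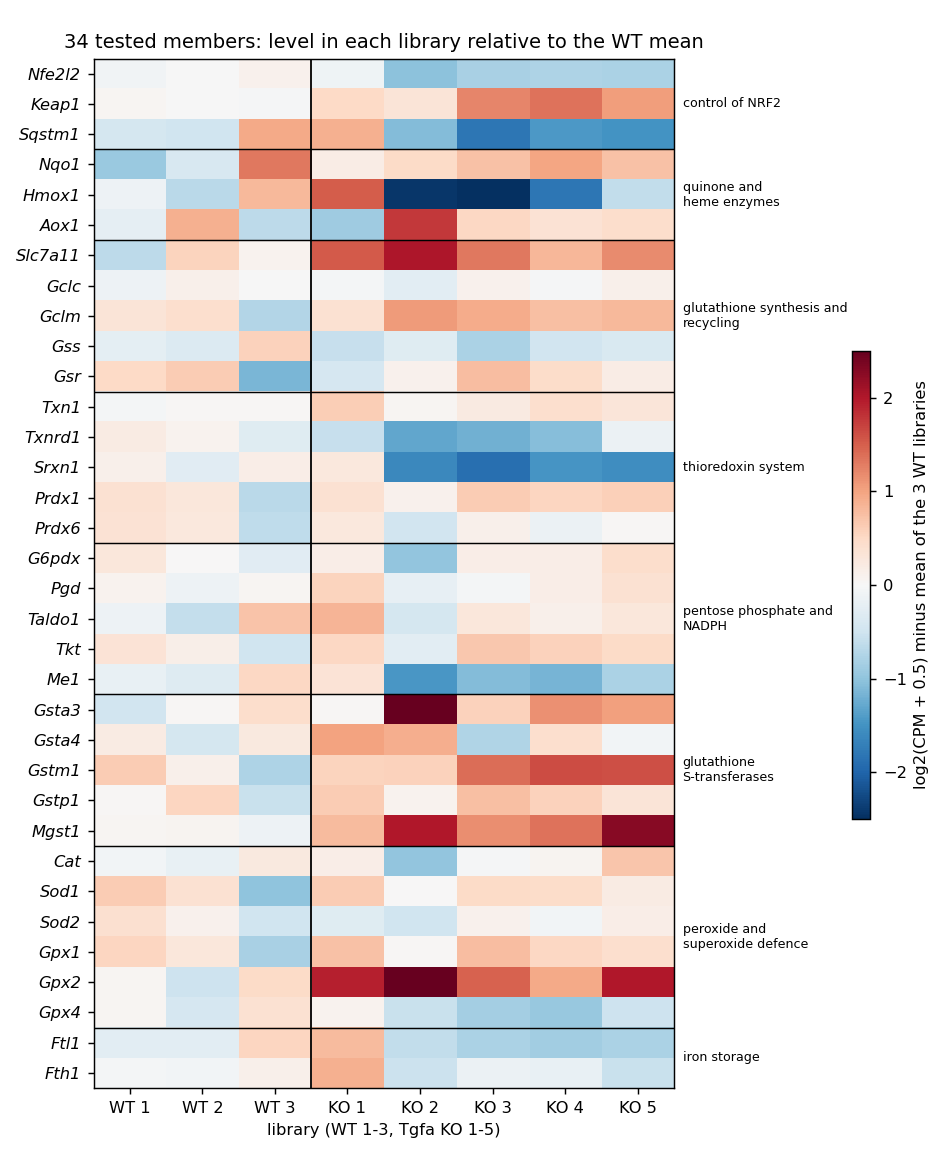
Level of the 34 tested members in each library as log2(CPM + 0.5) minus the mean of the 3 WT libraries, grouped by role (red higher, blue lower). WT replicate 3 and the library labelled KO replicate 1 are both red for Sqstm1, Hmox1 and Ftl1, while KO replicates 3 to 5 are blue for Nfe2l2, Sqstm1, Srxn1 and Me1 and red for Keap1, Gstm1 and Mgst1.

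NADPH for both reducing systems comes largely from the pentose phosphate pathway and malic enzyme. Me1, cytosolic malic enzyme, was at 314, 284 and 513 CPM in the WT group and 456, 130, 168, 159 and 207 in KO. KO replicates 2 to 5 were below every WT library. This gave a log2 difference of -0.73 (SE 0.42, edgeR adjusted p = 0.853), -0.79 with library weights (limma adjusted p = 0.0425) and -0.32 in the br libraries alone.

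The 4 pentose phosphate genes did not share this pattern, and none passed in edgeR or with library weights. G6pdx, the entry enzyme, was at 57.5 to 85.1 CPM in the WT group and 35.1 to 95.3 in KO (log2 fold change 0.05). Pgd was at 35.8 to 41.8 and 34 to 57.7 (0.2), Taldo1 at 22 to 55.6 and 24.7 to 61.1 (0.18), and Tkt at 52.8 to 95 and 62.5 to 120 (0.4), with edgeR adjusted p from 0.899 to 0.982. G6pdx shares 13.6% of its exon bases with Ikbkg on the opposite strand.

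Catalase and the superoxide dismutases, which clear hydrogen peroxide and superoxide, had overlapping groups. Cat was at 84.7 to 116 CPM in the WT group and 49 to 157 in KO, Sod1 at 2.89 to 10.1 and 6.43 to 10.1, and Sod2 at 42.9 to 80.8 and 43.1 to 69.1. Their log2 fold changes were 0.07, 0.23 and -0.14, with edgeR adjusted p from 0.938 to 0.976. Of the glutathione peroxidases, Gpx1 was at 43.2 to 111 CPM in the WT group and 77.6 to 132 in KO (0.41, edgeR adjusted p = 0.905). Gpx4, which reduces lipid peroxides in membranes, was at 12.5 to 22.2 and 8.5 to 18.1 (-0.56, adjusted p = 0.836).

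Gpx2, a peroxidase best known from gut epithelium, was the member with the highest fold and among the scarcest. It was at 0.34, 0.07 and 0.63 CPM in WT, from 6, 1 and 8 counts, and at 2.65, 4.52, 1.75, 1.08 and 2.78 in KO, from 19 to 40 counts. Every KO library was above every WT library. As a log2 difference this was 2.87 (edgeR SE 0.9 and adjusted p = 0.58, 95% interval from 0.86 to 4.89) and 3.19 with library weights (limma adjusted p = 0.0937). In KO replicate 2 the receptor gene density would give 4.88 of its 26 counts.

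Of 57 other NRF2 and redox genes, 55 were tested and edgeR called 0 (2 at an unadjusted p under 0.05). With library weights 3 of the 55 passed, where 6.46% of all tested genes did, so their share was not above that of all genes. Mafk and Maff, which encode small MAF partners of NRF2, fell (log2 fold changes -1.15 and -1.16, limma adjusted p = 0.00838 and 0.0335), and Mgst2, a microsomal transferase gene like Mgst1, rose (2.13, adjusted p = 0.0112). Mafk was at 131, 109 and 120 CPM in WT, at 149 in the library labelled KO replicate 1 and at 54.4, 54.5, 47 and 50.5 in KO replicates 2 to 5, the same split as in Srxn1. Maff was at 26.8, 34 and 55.6 CPM in the WT group and 79.1, 22.9, 12.4, 12.2 and 16.6 in KO. Mgst2 was at 3.53, 2.18 and 4.38 CPM in the WT group and 4.5, 8.16, 10, 13.2 and 17.8 in KO, with no overlap. The median log2 fold change in edgeR was 0.07 over these 55 genes, beside 0.16 over all tested genes. It was -0.0 over tested genes with a mean of at least 10 CPM, a level that 41 of the 57 reach.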

How the data were processed

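RNA sequencing counts of 8 libraries were used, 3 WT and 5 KO, grouped by the genotype in the labels and numbered in order of deposition. The authors deposited whole-number read counts per gene without normalization. The tools, per the submitters' processing notes, were STAR 2.5.2b, Trimmomatic 0.36 and Subread 1.5.2 (featureCounts), with the builds GRCh38 and GRCm38 both named. Gene identifiers are mouse Ensembl ones, per the file headers, beside each gene's exon length in bases. Whether strand was used, and how multi-mapped reads were treated, is not stated, so overlapping genes and close copies are uncertain. Symbols came from a table that named 48970 of 49315 genes.

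The test was that of edgeR 4.0.16 under R 4.3.3 (quasi-likelihood, robust, TMM, filterByExpr, Benjamini-Hochberg over all 19239 genes, threshold 0.05). Alternatives were DESeq2 1.42.0, limma 3.58.1 voom with and without library weights, other normalization and filters, the label ending, and left-out libraries. The fits were tested on simulated data. The members, lists and the set of 3 left-out libraries were chosen with earlier results of these data known. All members are named, and other redox genes if called in edgeR or with library weights. Glutathione transferase genes and close copies of members are named as well. Leaving libraries out of the weighted fit, and WT replicate 3 with KO replicate 1 out of edgeR, was added after seeing the data, as was taking the receptor gene density times exon length off the counts of each library. Markers of 12 cell types, wound keratins and cell cycle genes were summed per library.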

Additional observations from a re-analysis of the deposited data

Results flagged for a closer look

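In the KO group of 5, a single library lay far from the others for 11 of the 35 members, by Dixon's test at the 95% level, whose chance rate is about 1 in 20 groups. Over all tested genes 24.5% had such a KO library, so the count says little about the members as a group. The library labelled KO replicate 1 was the high one for 7 members, beside 5.33% of all tested genes. Its values were 174 CPM for Nfe2l2, 473 for Sqstm1, 376 for Hmox1, 69.6 for Srxn1, 456 for Me1, 63.9 for Ftl1 and 410 for Fth1. The other 4 KO libraries lay at 91.9 to 109, 73.1 to 120, 22.8 to 85.9, 15.3 to 20.2, 130 to 207, 19.9 to 23.8 and 150 to 200 CPM for these genes. KO replicate 2, the library with the fewest counts, was low for G6pdx (35.1 CPM) and Tkt (62.5 CPM), and high for Gsta1 (1.39 CPM) and Gsta3 (6.43 CPM).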

How the results depend on the processing

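No paired analysis was possible because the labels give no replicate numbers that groups share. Over all genes, the count of 1 in edgeR was 137 in DESeq2, 0 in limma voom, 1243 with library weights, 9 with no filter on low counts, 0 among libraries ending in br, 21 with WT against KO ending in bl and 1883 without WT replicate 3 and KO replicates 1 and 2, and 0 to 1 with a library left out. The count of 0 members was 1, 9, 1 and 10 in DESeq2, with library weights, with WT against KO ending in bl and without those 3 libraries, and that of other redox genes, also 0, was 3, 1 and 6 in the last 3 of these. Both were 0 with each library left out of edgeR, and without WT replicate 3 and KO replicate 1 together. The median over members, 0.19, ran from -0.12 (without WT replicate 2) to 0.26 with a library left out. With the receptor gene density taken off, chosen after seeing the data, the count of members separate on the lower side was 2 in place of 1, and on the higher side 4 in place of 5. In the weighted fit, leaving out a library gave 2 to 1900 genes, 0 to 11 members and 0 to 7 other redox genes.

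Of the 34 tested members, 18 kept the sign they had in edgeR under all 18 alternatives to the reported fit, among them Nfe2l2, Keap1, Srxn1, Txnrd1, Me1, Gstm1 and Mgst1. Log2 fold changes with the opposite sign were as follows, and the cause was not tested. In limma voom they were -0.01 for G6pdx and -0.02 for Cat. For Gclc the value was 0.02 with library weights, 0.01 with library totals alone or with WT against KO ending in bl, and 0.03 without the 3 libraries. With the label ending as a covariate they were 0.05 for Sqstm1, 0.48 for Hmox1, -0.34 for Gsr, -0.32 for G6pdx, -0.31 for Cat, 0.22 for Ftl1 and 0.34 for Fth1. Among libraries ending in br they were 0.09 for Sqstm1, -0.01 for Nqo1, 0.54 for Hmox1, -0.44 for Gsr, -0.35 for G6pdx, -0.32 for Cat, 0.22 for Ftl1 and 0.33 for Fth1. Gsta4 was -0.16 with WT against KO ending in bl. Without the 3 libraries, Aox1 was -0.02, Gsr -0.11 and Sod1 -0.16, and without WT replicate 3 and KO replicate 1, Gsr was -0.17, G6pdx -0.12 and Sod1 -0.23. With a library left out, ranges that crossed 0 were -0.32 to 1.41 for Nqo1, -1.77 to 0.11 for Hmox1, -0.21 to 0.01 for Gclc, -0.3 to 0.28 for Gsr, -0.34 to 0.12 for Prdx6, -0.17 to 0.24 for G6pdx, -0.1 to 0.28 for Pgd, -0.36 to 0.62 for Taldo1, -0.29 to 0.21 for Cat, -0.15 to 0.58 for Sod1, -0.37 to 0.1 for Sod2 and -0.35 to 0.11 for Fth1.
In the weighted fit Keap1 and Srxn1 stayed past the threshold in 6 of 8 fits with a library left out, Gstm1 and Mgst1 in 5, Nfe2l2, Nqo1, Txnrd1 and Me1 in 4 and Sqstm1 in 3. Depth limits Gpx2, Gsta1 and Gsta3, which had at most 40, 8 and 37 counts in a library.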

Other observations

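Summed levels of marker lists of other cell types overlapped between WT and KO, that of Langerhans cells by the library labelled KO replicate 1 alone, and 0 markers of any of them passed in edgeR. They were 29.2 to 77 and 55.6 to 144 for T cells, and 4.22 to 6.94 and 3.32 to 9.03 for erythroid cells. Fibroblast markers summed to 34.1 to 39.6 CPM in WT and 3.94 to 74 in KO, melanocyte markers to 8.13 to 18.3 and 7.89 to 23.1, and neutrophil markers to 0.952 to 3.44 and 0.557 to 13.7. KO replicate 2 was highest for the adipocyte list (26.9 CPM, against 0.125 to 5.71 elsewhere), the endothelial list (72.2, against 3.08 to 17.3) and the muscle list (36.3, against 0.188 to 12.6). The 10 cell cycle genes summed to 145 to 245 CPM in WT and 305 to 679 in KO, without overlap, with 0 called in edgeR and 6 higher with library weights.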
